A study of Mus musculus with 7 samples.

Results

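Immediate early genes are switched on within minutes of a signal, before any new protein is made. The 10 described here are the transcription factor genes Egr1, Fos, Fosb, Jun, Junb, Jund and Nr4a1, together with Ier2, Btg2 and Dusp1, of which Btg2 and Dusp1 restrain growth and kinase signals. They were chosen by name, as rows of the deposited table whose Ensembl identifier carries one of these symbols in GENCODE mouse release M21. All 10 were found among 55855 gene identifiers, and all 10 were among the 13948 genes tested. RNA came from bone marrow hematopoietic stem cells (HSCs) of mice aged 2 months. The control cells (n = 3 libraries) had the genotype Fth1fl/fl, in which loxP sites flank part of the gene of ferritin heavy chain, the ferritin subunit that oxidizes iron. The Fth1-deleted cells (n = 4 libraries) had the genotype Fth1△/△, the same gene after a deletion restricted to blood-forming cells. The Cre driver, the markers of the sort and the sex of the mice are not given in the sources used here. Whether each library stands for its own mouse is not stated, so the p-values measure the spread between libraries, which may be technical.

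Fos and Jun proteins pair with each other to form AP-1, a dimer that binds DNA and passes on signals from growth factors, cytokines and stress. Egr1 is a zinc finger factor that in mice is high in resting HSCs, where its loss lets the cells divide and leave the marrow. The same genes are also known to be switched on while a tissue is taken apart and cells are sorted, so their RNA can reflect handling as well as the state of the cells in the animal.

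The counted reads per library, read back from the deposited values, were 12058392 to 15453168. Values are FPKM, counted reads scaled to gene length and to the depth of the library. Fth1 itself was at 552, 659 and 638 FPKM in the control libraries and at 202, 333, 358 and 114 FPKM in the Fth1-deleted libraries. Reads of the Y-linked genes Ddx3y, Eif2s3y, Kdm5d and Uty were present in control 2 and in Fth1-deleted 1, 2 and 3, and absent from control 1, control 3 and Fth1-deleted 4. The X-linked gene Xist went the other way. It was at 142, 42.5 and 89.2 FPKM in control 1, control 3 and Fth1-deleted 4, and at 0 to 2.25 FPKM in the libraries with Y-linked reads. Ribosomal RNA took 0.014% to 0.984% of the reads in control and 1.21% to 1.34% in Fth1-deleted libraries (two-sided exact permutation test, p = 0.0286, the smallest that 3 against 4 libraries allow). Control 2 held the 0.984%, and the other controls 0.0253% and 0.014%. The summed FPKM of 10 HSC marker genes was 861 to 1420 in control and 571 to 767 in Fth1-deleted libraries, and all 10 were above 0. Markers of multipotent progenitors summed to 70.8 to 114 and 136 to 258 FPKM, those of monocytes and macrophages to 24.4 to 35.2 and 50 to 110 FPKM, and those of mast cells to 0 to 12.9 and 17.3 to 44.4 FPKM. Of the progenitor markers, Il7r was at 0 in every library. Megakaryocyte markers summed to 525 to 780 and 780 to 926 FPKM, and B cell markers to 12.1 to 26.2 and 24.2 to 84.2 FPKM. The remaining marker lists overlapped between the genotypes. Erythroid markers summed to 229 to 728 and 183 to 634 FPKM, and those of neutrophils and myeloid progenitors to 224 to 391 and 242 to 635 FPKM. Markers of T and NK cells summed to 22.4 to 110 and 81.9 to 143 FPKM, and those of endothelium and stroma to 15.1 to 39.5 and 31.7 to 39.7 FPKM. Their part in the results below was not tested. In such bulk samples, fewer cells of a type and less RNA per cell cannot be told apart.

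No immediate early gene passed the test between the genotypes. Of the 10, 0 were called higher and 0 lower (limma, Benjamini-Hochberg adjusted p under 0.05 over all genes tested), where 0.0574% of all genes tested were called, 0.0287% higher and 0.0287% lower. At an unadjusted p under 0.05 there was 1 of the 10, Egr1, a share like the 9.83% of all genes tested, and limma-voom on the recovered reads also called 0. Log2 differences, taken as log2(FPKM + 1) after deletion minus that in control, were positive for 6 members and negative for 4. Their median was 0.18, beside -0.02 over all genes tested. In 2 members, Egr1 and Junb, each Fth1-deleted library lay below each control library, a pattern found in 5.55% of all genes tested. The opposite pattern was found in 0 members and in 4.1% of genes.

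**Figure D1:**
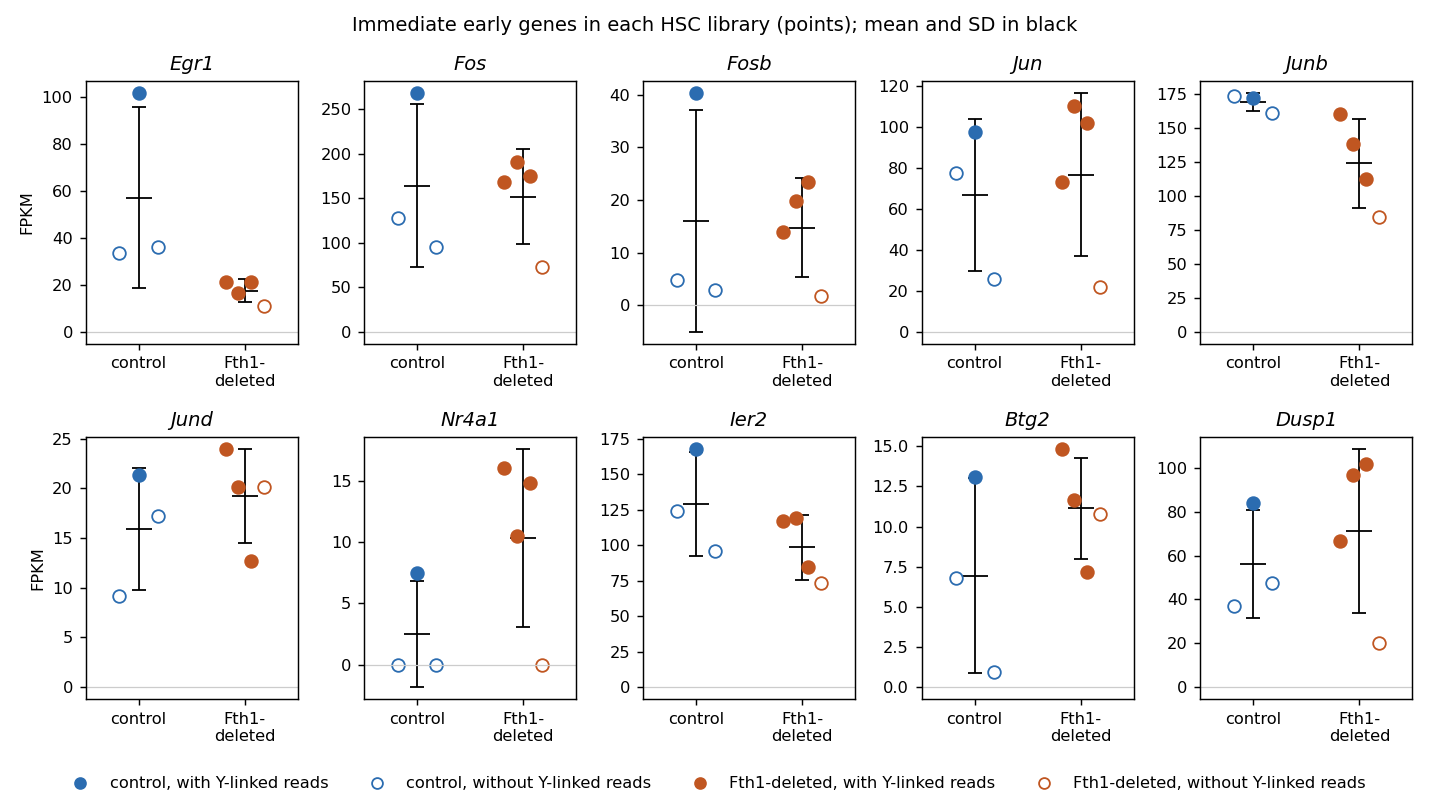
FPKM of each of the 10 immediate early genes in the 3 control and 4 Fth1-deleted libraries; filled points are libraries with Y-linked reads, open points libraries without, and bars give the mean and SD of a group. Egr1 and Junb are the members whose groups do not overlap, while for Fos, Fosb, Nr4a1 and Dusp1 every filled point lies above every open point.

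Egr1 had the clearest difference between the genotypes. Its gene (ENSMUSG00000038418) lies on chromosome 18 from 34859823 to 34864984 on the plus strand of GRCm38. Egr1 was at 33.4, 102 and 36.3 FPKM in the control libraries and at 21.3, 16.3, 21.3 and 11 FPKM in the Fth1-deleted libraries. Control 2 stood far above the other controls, yet the lowest control still lay above the highest Fth1-deleted library. The means were 57.2 ± 38.7 (SD, n = 3) and 17.5 ± 4.92 (SD, n = 4) FPKM, a level 3.27-fold lower after deletion. The log2 difference was -1.51 (SE 0.41), with an unadjusted p of 0.00312, rank 156 among all genes tested. Adjusted over all of them it did not pass (limma adjusted p = 0.279). These values rest on 612 to 5763 Egr1 reads per library, so counting error is small beside the spread between libraries.

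The size of the Egr1 difference depended on control 2. Without that library the control mean was 34.9 FPKM and the level 1.99-fold lower after deletion (log2 difference -0.998). Among the libraries with Y-linked reads alone, control 2 against Fth1-deleted 1 to 3, the log2 difference was -2.33, and among those without, control 1 and 3 against Fth1-deleted 4, it was -1.58. In each of these subsets 1 group is a single library, whose spread is taken to be that of the other group, and neither passed (limma adjusted p = 0.103 and 0.73). With a term for Y-linked reads in the fit of all 7 libraries, an alternative named with earlier results of these data known, the log2 difference was -1.97 (SE 0.32) and Egr1 passed the threshold (limma adjusted p = 0.0491). That fit called 0.0717% of all genes lower. Over the 23 alternatives tried, the adjusted p was 0.0491 to 0.73 and the log2 difference was negative in all 23, from -2.92 to -0.998. The -2.92 came with the share of ribosomal RNA reads as a covariate (limma adjusted p = 0.0885). Among the controls that share was high in control 2 alone, so the slope of the covariate rests largely on this library. Some of the 23 change only the SE or the set of genes tested. They keep the log2 difference of -1.51, so their sign was fixed in advance.

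Set against Fos, Egr1 was low in every Fth1-deleted library. Fos and Egr1 are classically switched on by the same signals through serum response factor, which makes the ratio of their levels within a library readable beside the levels themselves. The FPKM of Egr1 was 26.2%, 38% and 37.9% of that of Fos in the controls and 12.7%, 8.57%, 12.2% and 15.1% after deletion. The groups do not overlap, and control 2, high in both genes, lies among the other controls in this ratio. The means were 34.0% ± 6.82 (SD, n = 3) and 12.1% ± 2.70 (SD, n = 4). A two-sided exact permutation test gave p = 0.0286, the smallest it can give, for a ratio that was chosen after the values were seen. Egr1 was the 1 member whose ratio to Fos was lower without overlap, and 1.97% of all genes tested showed that pattern.

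**Figure D2:**
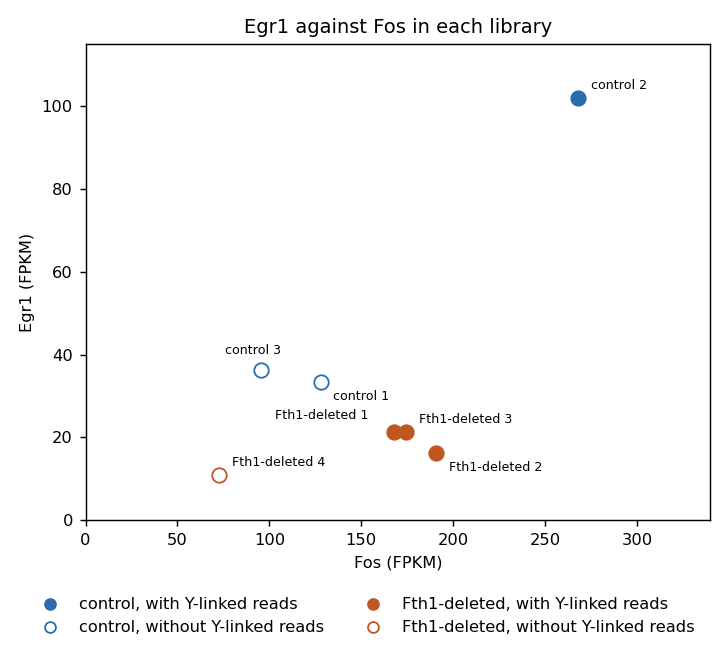
Egr1 against Fos, both in FPKM, in each of the 7 libraries; color gives the genotype and filled points are libraries with Y-linked reads. The Fth1-deleted libraries lie between 8.57% and 15.1% of Egr1 per Fos, and the control libraries between 26.2% and 38%.

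Fos and Fosb varied more between libraries of a genotype than between the genotypes. Fos (ENSMUSG00000021250), the AP-1 subunit that must pair with a Jun protein to bind DNA, lies on chromosome 12 from 85473890 to 85477273 on the plus strand. It was at 128, 268 and 95.6 FPKM in control and at 168, 191, 175 and 72.8 FPKM in Fth1-deleted libraries. The highest value was in control 2 and the lowest in Fth1-deleted 4, and the ranges overlapped. The means of 164 ± 91.7 and 152 ± 53.3 FPKM differed by less than the spread between libraries, with a log2 difference of -0.06 (SE 0.38, limma adjusted p = 0.966). Fosb (ENSMUSG00000003545, chromosome 7, 19302696 to 19310051, minus strand), a Fos relative, was at 4.91, 40.3 and 2.97 FPKM in control. In the Fth1-deleted libraries it was at 13.97, 19.8, 23.4 and 1.86 FPKM. Its order across the libraries was again control 2 at the top and Fth1-deleted 4 at the bottom, over a wider range than that of Fos. The log2 difference of 0.30 (SE 0.87) did not pass (limma adjusted p = 0.932). Fosb made up 3.70%, 13.1% and 3.01% of the summed FPKM of Fos and Fosb in the controls and 7.67%, 9.41%, 11.8% and 2.49% after deletion, so its share was higher in the libraries where Fos was high.

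Jun, the AP-1 subunit activated by JNK kinases, showed a low and a high level within each genotype. Jun (ENSMUSG00000052684) lies on chromosome 4 from 95049034 to 95052222 on the minus strand. It was at 77.3, 97.3 and 25.6 FPKM in control and at 72.8, 110, 102 and 21.8 FPKM in Fth1-deleted libraries. Control 3 and Fth1-deleted 4 were low and the other 5 libraries lay well above them, so the genotypes overlapped. The log2 difference of 0.17 (SE 0.55) did not pass (limma adjusted p = 0.938). The annotated antisense gene Junos covers 689 bases of Jun, and its FPKM was 7.98 in control 2 and 0 in the other libraries. Without the strand setting of the counting, reads of such overlapping genes cannot be told apart, which leaves the levels of Jun, Junb, Jund and Dusp1 uncertain to that extent.

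Junb was the steadiest member. Junb, an AP-1 subunit that in mice restrains the growth of HSCs and myeloid progenitors, lies on chromosome 8 from 84974484 to 84978718 on the minus strand (ENSMUSG00000052837). It was at 174, 172 and 161 FPKM in control and at 160, 138, 112 and 84.3 FPKM in Fth1-deleted libraries. The controls sat close together, and each Fth1-deleted library lay below them, though Fth1-deleted 1 was next to control 3. The means were 169 ± 6.77 (SD, n = 3) and 124 ± 32.9 (SD, n = 4) FPKM, 1.36-fold lower after deletion. The log2 difference was -0.48 (SE 0.22) and did not pass (limma adjusted p = 0.512). It was negative in all 23 alternatives, several of which keep this value by construction, from -0.98 to -0.315, the last without Fth1-deleted 4. Junb overlaps Prdx2, on the opposite strand, by 351 bases.

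Jund, the Jun relative that resting cells commonly make, had an order unlike that of most members, as did Btg2. Jund (ENSMUSG00000071076) lies on chromosome 8 from 70698949 to 70700616 on the plus strand. It was at 9.20, 21.3 and 17.2 FPKM in control and at 24.0, 20.1, 12.7 and 20.2 FPKM in Fth1-deleted libraries. Fth1-deleted 4, lowest for most members, was not low here, and the ranges overlapped (log2 difference 0.30, SE 0.38, limma adjusted p = 0.81). Jun made up 29.7%, 33.5% and 12.6% of the summed FPKM of Jun, Junb and Jund in the controls and 28.3%, 41.0%, 44.9% and 17.2% after deletion. These shares overlapped between the genotypes, and the share of Jun was lowest in control 3 and Fth1-deleted 4.

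Nr4a1 was present in some libraries and not detected in others of the same genotype. Nr4a1 encodes Nur77, an orphan nuclear receptor that in mice takes part in HSC rest, and lies on chromosome 15 from 101254269 to 101274795 on the plus strand (ENSMUSG00000023034). It was at 0, 7.47 and 0 FPKM in control and at 16.0, 10.5, 14.8 and 0 FPKM in Fth1-deleted libraries. In reads these are 0, 176 and 0 in control and 388, 224, 297 and 0 after deletion. The libraries with Y-linked reads are those with Nr4a1 reads. The 3 libraries at 0 allow a level of up to 3 reads each, or 0.129 to 0.159 FPKM, counting error only. The mean of 12.2 FPKM in the other 4 libraries was at least 76.8-fold higher than the highest of these floors. Between the genotypes the log2 difference of 1.87 (SE 1.07) did not pass (limma adjusted p = 0.612).

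Ier2, a small nuclear protein gene named for its early response, was lower on average after deletion, with overlap. Ier2 (ENSMUSG00000053560) lies on chromosome 8 from 84661331 to 84662852 on the minus strand. It was at 124, 168 and 95.7 FPKM in control and at 117, 119, 84.4 and 73.4 FPKM in Fth1-deleted libraries. Control 3 lay below a pair of Fth1-deleted libraries. The log2 difference of -0.38 (SE 0.25) did not pass (limma adjusted p = 0.652). It was negative in all 23 alternatives, several of which keep this value by construction. The difference was -0.174 without control 2, -0.252 without Fth1-deleted 4 and -0.578 without control 3.

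The feedback genes Btg2 and Dusp1 did not differ beyond the spread between libraries. Btg2, an antiproliferative gene that p53 also activates, lies on chromosome 1 from 134075170 to 134079120 on the minus strand (ENSMUSG00000020423). It was at 6.80, 13.1 and 0.937 FPKM in control and at 14.9, 11.6, 7.20 and 10.8 FPKM in Fth1-deleted libraries. Control 3, with 31 Btg2 reads, was the low library, and the log2 difference of 0.98 (SE 0.64) did not pass (limma adjusted p = 0.647). Without control 3 the difference was 0.172, and without control 2 it was 1.6. Dusp1, a phosphatase that switches off MAP kinases, lies on chromosome 17 from 26505590 to 26562128 on the minus strand (ENSMUSG00000024190). It was at 37.0, 84.0 and 47.6 FPKM in control and at 66.7, 96.8, 102 and 20.2 FPKM in Fth1-deleted libraries. As for Fos, control 2 led its group and Fth1-deleted 4 was lowest, and the log2 difference of 0.19 (SE 0.49) did not pass (limma adjusted p = 0.92). Dusp1 overlaps Ergic1, on the opposite strand, by 640 bases.

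**Figure D3:**
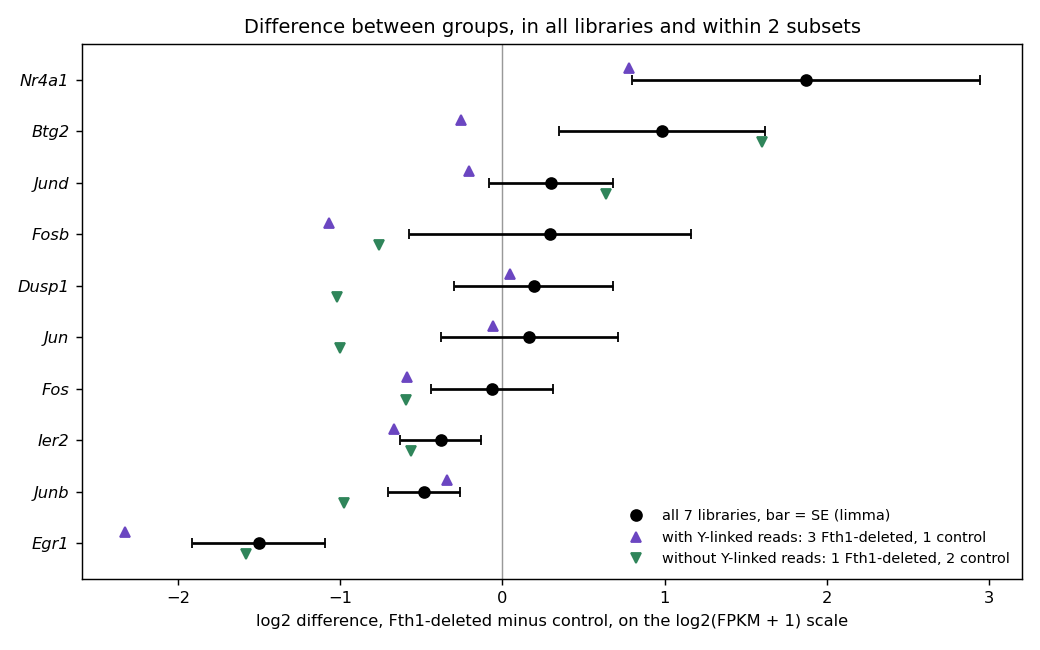
Log2 difference in FPKM + 1, deleted minus control, of each immediate early gene in all 7 libraries, with its SE. Triangles give the libraries with and those without Y-linked reads alone, in each of which 1 group is a single library. Egr1, Fos, Junb and Ier2 lie below 0 in every value drawn. Nr4a1, not tested in the libraries without, lies above 0, and the other members have values on both sides of 0.

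Several members differed between libraries with and without Y-linked reads. In 4 of the 10 members, Fos, Fosb, Nr4a1 and Dusp1, each of the 4 libraries with Y-linked reads lay above each of the 3 without, a pattern found in 3.24% of all genes tested. The opposite pattern was found in 0 members and in 2.31% of genes. The mean FPKM with Y-linked reads was 200 against 98.8 for Fos (2.03-fold), 24.4 against 3.25 for Fosb (7.51-fold) and 87.3 against 34.9 for Dusp1 (2.5-fold). For Jun, whose ranges overlapped, the ratio was 2.30, and for Egr1 it was 1.49. In 7 members, Egr1, Fos, Fosb, Jun, Ier2, Nr4a1 and Dusp1, control 2 lay above both other controls while Fth1-deleted 4 was the lowest of its group, beside 10.7% of all genes tested. The reverse was found in 0 members and in 8.1% of genes. This grouping was seen in the data and rests, within each genotype, on 1 library, control 2 among the controls and Fth1-deleted 4 among the deleted. Within control it cannot be told apart from the ribosomal RNA share, which was high in control 2 alone. Within the Fth1-deleted libraries that share was alike, at 1.21% to 1.34%. There the grouping cannot be told apart from the level of Fth1. It was lowest in Fth1-deleted 4, at 114 FPKM, beside 202, 333 and 358 FPKM in Fth1-deleted 1, 2 and 3.

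The same contrast is seen in sums over the members. The summed FPKM of the 10 genes was 594, 974 and 483 in the controls and 675, 733, 654 and 316 after deletion. Fth1-deleted 4 had the lowest value of 7 members, and control 2 the highest of 4. The sum of the 10 HSC markers was also highest in control 2, at 1420 FPKM, and lowest in Fth1-deleted 4, at 571 FPKM. The part of HSC content in the results on the members was not tested. For each of the 10 marker lists, summed levels overlapped between libraries with and without Y-linked reads, and 0 single markers were higher in all 4 without overlap.

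**Figure D4:**
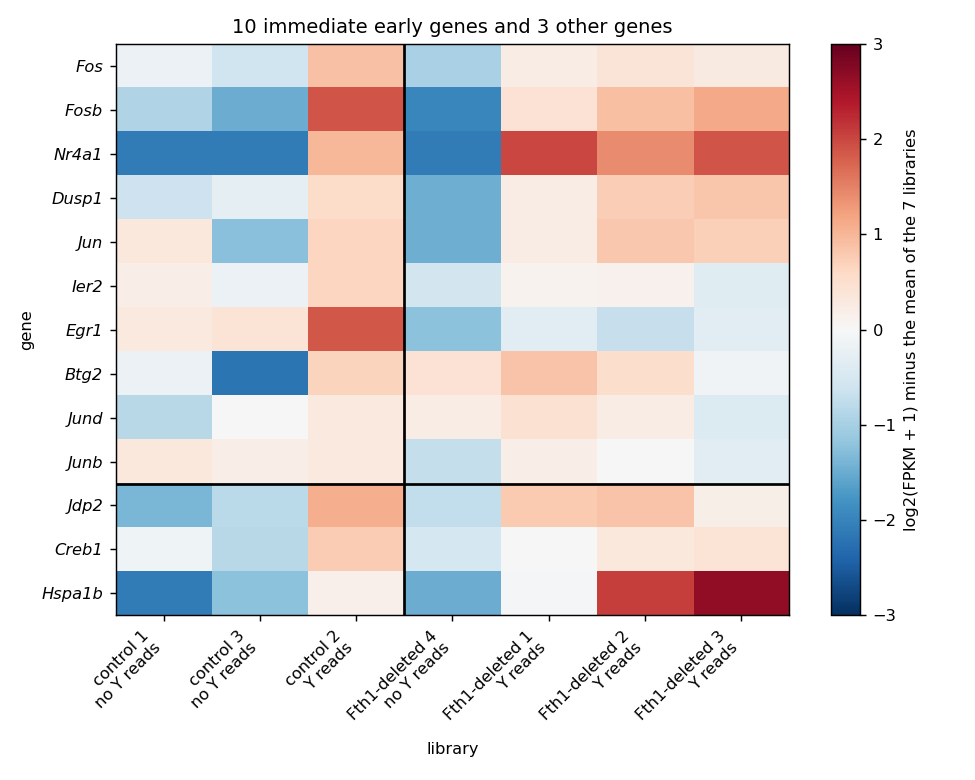
Level of each immediate early gene in each library as log2(FPKM + 1) minus its own mean over the 7 libraries. Jdp2, Creb1 and Hspa1b, chosen after their values were seen, are drawn below the members. Control 2 is high and Fth1-deleted 4 low for most members, while Junb, Jund and Btg2 have other orders.

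The spread of the members within a genotype was set beside that of other genes. For 8 of the 10, the within-group SD of log2(FPKM + 1) was above the median of genes whose mean FPKM was 5 or more. The SD of Nr4a1 was larger than that of 97.7% of those genes, that of Fosb larger than 96.3%, and that of Jun larger than 90.3%. Egr1 stood at 74.2%, Ier2 at 37.9% and Junb at 27.5%. Ier2 and Junb thus varied less than most of those genes.

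The proximal promoters of the 4 genes that were higher in all libraries with Y-linked reads are shown, since these genes moved together. Each is a RefSeq window of GRCm38.p6 from 250 bases before to 50 bases after the start of the gene, 5′ to 3′ on the strand of the gene. The capitals mark TGACG, the core of the cyclic AMP response element that CREB and ATF proteins bind, or its reverse complement CGTCA. The windows are chr12:85473640-85473939 on the plus strand for Fos, chr7:19309996-19310295 on the minus strand for Fosb, chr15:101266596-101266895 on the plus strand for Nr4a1 and chr17:26508423-26508722 on the minus strand for Dusp1.
Fos: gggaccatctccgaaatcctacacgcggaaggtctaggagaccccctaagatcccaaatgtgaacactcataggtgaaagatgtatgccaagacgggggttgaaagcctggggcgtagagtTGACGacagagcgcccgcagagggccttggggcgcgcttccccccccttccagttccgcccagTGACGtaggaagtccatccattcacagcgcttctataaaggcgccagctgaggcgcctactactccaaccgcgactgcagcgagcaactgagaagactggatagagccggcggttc
Fosb: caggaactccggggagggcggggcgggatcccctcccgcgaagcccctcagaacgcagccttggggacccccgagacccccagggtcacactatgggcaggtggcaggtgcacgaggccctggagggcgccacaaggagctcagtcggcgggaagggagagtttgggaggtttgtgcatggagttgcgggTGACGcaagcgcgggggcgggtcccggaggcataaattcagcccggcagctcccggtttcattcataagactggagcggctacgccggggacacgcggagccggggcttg
Nr4a1: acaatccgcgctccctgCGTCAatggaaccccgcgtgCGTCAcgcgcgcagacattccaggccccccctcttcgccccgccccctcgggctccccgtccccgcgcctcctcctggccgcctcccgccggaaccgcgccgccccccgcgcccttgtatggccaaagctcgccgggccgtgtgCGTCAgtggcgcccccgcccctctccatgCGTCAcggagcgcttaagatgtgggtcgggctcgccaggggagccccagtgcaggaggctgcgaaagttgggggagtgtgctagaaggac
Dusp1: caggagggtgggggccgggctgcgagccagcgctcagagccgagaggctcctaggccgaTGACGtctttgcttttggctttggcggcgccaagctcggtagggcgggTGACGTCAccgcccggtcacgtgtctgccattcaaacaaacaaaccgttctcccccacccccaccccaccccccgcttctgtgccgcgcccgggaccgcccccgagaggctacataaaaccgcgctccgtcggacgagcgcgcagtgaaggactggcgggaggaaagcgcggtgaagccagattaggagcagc

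The core motif occurs more than once in 3 of these windows. Counted from the start of the gene, it begins at -129 and -66 in Fos, at -60 in Fosb, at -233, -213, -69 and -40 in Nr4a1 and at -191, -143 and -140 in Dusp1. The last pair in Dusp1 are the overlapping strands of the full palindrome TGACGTCA. The RefSeq start lies 12577 bases inside the GENCODE gene for Nr4a1 and 53656 bases inside it for Dusp1, for which GENCODE lists longer genes. For Jund it lies 1210 bases before the GENCODE gene, so its window, which holds none of the motifs, does not adjoin the annotated start. RefSeq windows were matched for 8 of the 10 members, and TGACG on either strand was present in 6 of these 8 (also Btg2 and Junb), beside 20.8% of 32851 promoters. TGACGTCA was in Btg2 and Dusp1, beside 1.79% of promoters, and the GC box GGGCGG was in 6 of 8, beside 35.7%. The TATAAA box was in 2 of 8, Fos and Junb, beside 13.6%. The AP-1 motif TGANTCA and the CArG box of serum response factor were in 0 of 8 windows, beside 7.81% and 1.63% of promoters, which says only that these letters are not in these windows. Both strands were read throughout, and a match is a description of the sequence, not a site shown to be bound.

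**Figure D5:**
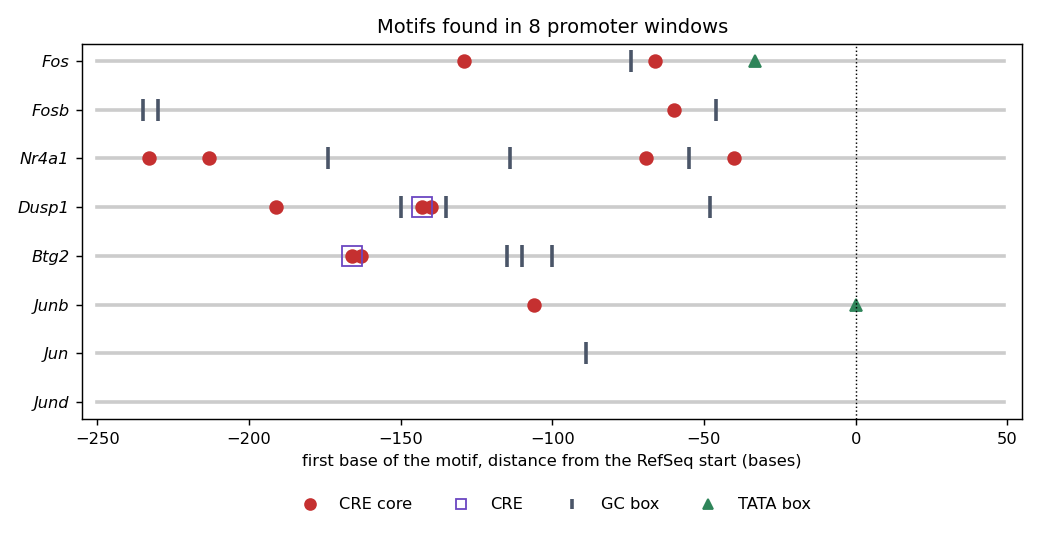
Places of the motifs in the promoter windows of the 8 members that were matched, as distance in bases from the RefSeq start. The core of the cyclic AMP response element is present in 6 of the 8 windows.

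Most members have short genes. Of the 10, 9 have a gene shorter than the median of 23372 bases over the 11505 protein-coding genes tested, and their median length was 4093 bases. Jun, Junb, Jund and Ier2 have a single exon, as do 2.56% of those genes, whose median is 9 exons. The 3′ UTR motif ATTTA, the core of AU-rich elements that shorten the life of an mRNA, occurred at a median of 2.76 per kilobase of 3′ UTR in the members and 1.24 over all genes. Its density was above that median in 8 of the 10. Btg2 had 5 copies and Fos, Jun and Dusp1 had 4 each, a number that 26.6% of genes reach, and Ier2 had 0.

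Other genes of the same response gave no call either. Of 36 other immediate early and early response genes, 31 were tested, and 0 were called higher and 0 lower (17 positive, 14 negative, median log2 difference 0.06). At an unadjusted p under 0.05 there was 1 of the 31, below the share of 9.83% over all genes tested. The smallest p were those of Zfp36l1, an RNA-binding protein that destabilizes AU-rich mRNAs (-0.87, SE 0.40, limma adjusted p = 0.506), the kinase gene Sgk1 (1.28, SE 0.72, adjusted p = 0.602), Zfp36l2 (-0.30, SE 0.17, adjusted p = 0.602) and the phosphatase gene Dusp2 (-0.49, SE 0.30, adjusted p = 0.627). Zfp36l1 was at 28.7, 33.9 and 13.2 FPKM in control and at 10.8, 16.1, 9.27 and 14.4 FPKM in Fth1-deleted libraries, with control 3 inside the deleted range. In 3 of the 31, Dusp4, Nfkbiz and Mcl1, named after their values were seen, libraries with Y-linked reads were higher without overlap, beside 3.24% of all genes tested, and in 1, Dusp6, they were lower, beside 2.31%.

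Regulators that lead to these genes gave no call between the genotypes. All 22 genes of serum response factor, its partners, CREB and the ERK, JNK and p38 kinases were tested, and 0 were called in either direction (9 positive, 13 negative, median -0.06). At an unadjusted p under 0.05 there were 2 of the 22, near the share of 9.83% over all genes tested. Map2k2, a kinase that activates ERK, was at 130, 84.6 and 132 FPKM in control and at 180, 192, 143 and 172 FPKM in Fth1-deleted libraries. Each deleted library lay above each control, in 1 of the 22, beside 4.1% of all genes tested. In 2 of the 22 each deleted library lay below each control, beside 5.55%. The log2 difference of Map2k2, 0.59 (SE 0.21), did not pass (limma adjusted p = 0.406). Mknk1, a kinase downstream of ERK, had a log2 difference of 0.76 (SE 0.30, adjusted p = 0.444), the other ERK activator gene Map2k1 -0.62 (SE 0.32, adjusted p = 0.576) and Atf2 -0.49 (SE 0.31, adjusted p = 0.64). Creb1, named after its values were seen, was at 41.8, 79.1 and 25.4 FPKM in control and at 46.4, 57.1, 61.2 and 31.6 FPKM after deletion. Each library with Y-linked reads lay above each without, in 1 of the 22, beside 3.24% of all genes tested. The genotypes overlapped (log2 difference 0.12, SE 0.37, limma adjusted p = 0.936).

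Partners of AP-1 and of Egr1 were measured as well. Of 15 AP-1 partner factors, 0 were called (7 positive, 8 negative, median -0.13). At an unadjusted p under 0.05 there was 1 of the 15, beside 9.83% of all genes tested. Atf7, a CREB-like factor, was at 73.4, 41.7 and 49.9 FPKM in control and at 16.2, 39.4, 28.6 and 22.4 FPKM in Fth1-deleted libraries. It was the 1 of the 15 lower without overlap of the groups, beside 5.55% of all genes tested. The log2 difference of -1.05 (SE 0.33) did not pass (limma adjusted p = 0.353). Batf had a log2 difference of 0.52 (SE 0.30) and Batf3 -1.005 (SE 0.84), with limma adjusted p of 0.612 and 0.721. Jdp2, a repressor of AP-1 named after its values were seen, was at 5.32, 33.8 and 8.36 FPKM in control and at 27.2, 28.9, 17.7 and 8.84 FPKM after deletion. It was the 1 of the 15 higher without overlap in libraries with Y-linked reads, beside 3.24% of all genes tested.

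Of 6 Egr co-repressors and Egr-type factors, 3 were tested, 0 were called and all 3 were negative (median -0.36). Klf9, a zinc finger factor, was at 21.6, 17.4 and 27.1 FPKM in control and at 6.19, 14.8, 16.0 and 9.81 FPKM in Fth1-deleted libraries. It was the 1 of the 3 lower in each deleted library than in each control, beside 5.55% of all genes tested. Its log2 difference was -0.92 (SE 0.40, limma adjusted p = 0.487). The Egr1 co-repressor genes Nab1 (-0.36, SE 0.25, adjusted p = 0.667) and Nab2 (-0.16, SE 0.39, adjusted p = 0.913) overlapped between the groups. Egr2, Egr3 and Wt1 fell short of a mean FPKM of 1 and were not tested.

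Heat shock genes, which dissociation of tissue is also known to raise, gave no call, though most were positive. Of 11 such genes 10 were tested, and 0 were called in either direction, with 9 positive, 1 negative and a median log2 difference of 0.60. At an unadjusted p under 0.05 there were 7 of the 10, beside 9.83% of all genes tested, and 5 were higher in each deleted library than in each control, beside 4.1%. The chaperone gene Hsp90aa1 was at 683, 697 and 870 FPKM in control and at 1116, 1084, 1152 and 988 FPKM in Fth1-deleted libraries (log2 difference 0.54, SE 0.15, limma adjusted p = 0.295). The mitochondrial chaperone gene Hspd1 had a log2 difference of 0.74 (SE 0.22, adjusted p = 0.306), Hspa8 0.54 (SE 0.16, adjusted p = 0.311) and Hsph1 0.87 (SE 0.27, adjusted p = 0.353). The groups do not overlap for Hsp90aa1, where Fth1-deleted 4 was the nearest to control. The stress-inducible Hspa1b, named after its values were seen, was at 3.06, 18.4 and 6.36 FPKM in control and at 15.7, 72.4, 109 and 5.21 FPKM in Fth1-deleted libraries. Its low libraries were those without Y-linked reads, as for Fos, a pattern of 3 of the 10 and of 3.24% of all genes tested. The part of Hspa1b in the results on the members was not tested.

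Genes with patterns like those of the members were sought among 9467 named genes whose mean FPKM was 5 or more, over the same 7 libraries, which makes high correlations easy to find. The closest to Egr1 were Opa1, a gene of mitochondrial inner membrane fusion (Pearson r 0.992), Trim56 (0.973), Phactr2 (0.971), Zpr1 (0.968) and Adam11 (0.965). Opa1 was at 32.9, 44.0 and 33.2 FPKM in control and at 27.3, 27.5, 28.2 and 24.2 FPKM in Fth1-deleted libraries, over a much narrower range than Egr1. It too was highest in control 2 and lowest in Fth1-deleted 4, without overlap of the groups. Closest to the mean of the standardized members were Mum1 (0.971), Mau2 (0.970), Gramd1c (0.961), Cacnb1 (0.956) and the p53 inhibitor gene Mdm4 (0.949). Mdm4 was at 103, 150 and 73.3 FPKM in control and at 129, 155, 124 and 64.1 FPKM in Fth1-deleted libraries, with its low values in control 3 and Fth1-deleted 4.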

How the data were processed

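Per the series text and the submitters' processing notes, the authors aligned paired-end reads to GRCm38 with HISAT2 2.0.4, counted reads per gene with HTSeq 0.9.1 and deposited FPKM computed from counts and gene length. The annotation release and strand setting are not given in the sources used here. Per the labels, libraries were made from polyA RNA. Of 55855 identifiers, 55394 were matched to GENCODE M21.

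The analysis used log2(FPKM + 1) of the 13948 genes whose mean FPKM reached 1. Groups were compared with limma-trend (limma 3.58.1, R 4.3.3) without covariates, with two-sided p-values, Benjamini-Hochberg adjustment over all of these genes and a threshold of 0.05, after tests on simulated data. A log2 difference on this scale understates the change of low genes. For single values per library, an exact permutation test (two-sided) ran over all 35 splits and cannot give a p below 0.0286. Reads were recovered from FPKM and mean transcript length, and 98.8% to 99.4% of values under 50 reads were whole within 0.05 reads.

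The members, the lists and most alternatives were chosen with earlier results of these data known. The text names the 10 members, the 4 genes with the smallest limma p in each other list, and the 5 genes most correlated with Egr1 and with the mean of the members. 1 gene that the rule names is counted but not reported here by name. Genes named outside this rule are marked. The alternatives tried were other pseudocounts (0.1 and 5), other filters (none, or a mean FPKM of 5), size factors, quantile normalization, rescaling to a fixed sum, no trend, library weights, a replicate block, each library left out, a ribosomal RNA covariate, a term for Y-linked reads, protein-coding genes alone and limma-voom on recovered reads. The libraries with and without Y-linked reads alone were added after seeing the data. Promoter windows are from RefSeq tables of GRCm38.p6, and figures were drawn from the computed tables.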

Additional observations from a re-analysis of the deposited data

Results flagged for a closer look

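Atf2, a CREB-like partner of AP-1, was at 35.8 FPKM in Fth1-deleted 3 and at 22 to 22.9 FPKM in the other 3 Fth1-deleted libraries. The gap to its nearest neighbour took up 0.936 of the range of the group, above Dixon's 95% critical value for 4 samples. Of the 29 genes examined in this way, 1 passed, and chance alone passes about 1 in 20 groups.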

How the results depend on the processing

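The number of genes called over all genes tested was small and unstable, with 4 higher and 4 lower. It was 0 and 0 with no filter, with the replicate block, and among the libraries with or without Y-linked reads alone (1504, 987, 1892 and 813 genes at an unadjusted p under 0.05). It was 10 higher and 7 lower with no trend, 23 and 9 with the ribosomal RNA covariate, 7 and 10 with the Y-linked term, 2 and 2 among protein-coding genes and 0 and 5 with limma-voom. With 1 library left out it was 0 to 13 higher and 0 to 6 lower. Without control 3 it was 0 and 0.

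The count of immediate early genes called was 0 in each direction in every alternative except the Y-linked term, with 1 lower, Egr1. Their median was 0.18, and it was -0.83 with the ribosomal RNA covariate, -0.76 among the libraries without Y-linked reads, and -0.37 to 0.53 with 1 library left out. Egr1, Junb and Ier2 kept their sign in all 23 alternatives. Of the members that did not pass, several changed sign, and the cause was not tested. With the replicate block Fos was at 0.255. With the ribosomal RNA covariate Fosb was at -2.58, Jun at -0.82, Jund at -0.32, Nr4a1 at -0.83, Btg2 at -0.76 and Dusp1 at -0.67. The slope of that covariate rests largely on control 2. With the Y-linked term Fosb was at -0.93, Jun at -0.50 and Dusp1 at -0.46. Among libraries with Y-linked reads Fosb was at -1.07, Jun at -0.0588, Jund at -0.205 and Btg2 at -0.255. Among those without, Fosb was at -0.76, Jun at -1.0 and Dusp1 at -1.02, and Nr4a1, at 0 in all 3, was not tested. With 1 library left out Fos was at -0.38 to 0.36, Fosb at -0.36 to 1.33, Jun at -0.41 to 0.68, Jund at -0.0259 to 0.54, Dusp1 at -0.0612 to 0.71, Btg2 at 0.172 to 1.6, Nr4a1 at 1.36 to 2.9, Ier2 at -0.578 to -0.174, Junb at -0.621 to -0.315 and Egr1 at -1.79 to -0.998.

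Same-numbered libraries shared little deviation from their group means (correlations of 0.009, 0.0609 and -0.037 across genes). With so few libraries per group this cannot decide whether the numbers pair them, and the labels give replicate numbers only. Of the 3 controls, control 2 alone correlated best with its own number. The block leaves out Fth1-deleted 4, which has no partner.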
